A study of Mus musculus with 8 samples.

Results

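The genes described here encode the proteins of the cytosolic ribosome, and they were measured in mouse kidney after cinacalcet. They were chosen by name and not by their values: every array probe whose transcript accession led to a gene named Rpl or Rps followed by a number, together with Rplp0, Rplp1, Rplp2 and Rpsa. Genes whose symbol marks a pseudogene (-ps) and the S6 kinases were left out. Rps4l, which RefSeq lists as a transcribed pseudogene, was kept by its name. This gave 88 genes with 178 probes among the 20660 genes the array names, and 86 of them were measured well enough to test. Of the 88, 77 encode standard ribosomal proteins, 31 of the small (40S) subunit and 46 of the large (60S) subunit, and are called the core genes below. The other 11 carry the family name but are paralogs, relatives or another protein (Rpl3l, Rpl7l1, Rpl10l, Rpl22l1, Rpl32l, Rpl36al, Rpl39l, Rps4l, Rps27l, Rps23rg1 and Rps19bp1).

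The control group was 4 whole kidney samples of mice on standard chow, and the treated group was 4 of mice given cinacalcet hydrochloride, worded as 1 mg per g body weight, for 5 days. Cinacalcet activates the calcium-sensing receptor. All mice are labelled as male and 12 weeks old, and no strain is given. Total RNA of each sample was read on a single-colour Agilent array, with all 8 arrays on 1 slide. Whether the numbered samples are from separate animals is not stated in the labels, and p-values therefore describe the variation among these samples, which may be technical.

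The ribosome builds protein from messenger RNA. Its small subunit decodes the message and its large subunit joins the amino acids, and the proteins of both are made in matched amounts by genes that are active in every cell. Their messages are among the more abundant ones in most tissues, kidney included. Messages of ribosomal proteins usually begin with a C followed by a run of C and T (the 5′ terminal oligopyrimidine tract), through which the growth kinase mTORC1 and the RNA-binding protein LARP1 set how strongly they are translated and how long they last. The array reads the amount of message and not its translation.

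To show this start, 50 bases around the annotated start are printed for members at both ends of the estimates and for Rps6 and Rplp2, with 30 bases before the start and 20 from it. Capitals mark the longest run of C and T that reaches within 15 bases of the start, and the first such run where lengths tie. The sequences are from RefSeq on build GRCm38.p6, read 5′ to 3′ on the gene's strand.
Rps27, chr3:90213629-90213678, minus strand: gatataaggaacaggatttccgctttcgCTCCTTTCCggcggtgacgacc
Rps18, chr17:33955646-33955695, minus strand: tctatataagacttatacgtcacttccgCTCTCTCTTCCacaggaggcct
Rps4x, chrX:102189372-102189421, minus strand: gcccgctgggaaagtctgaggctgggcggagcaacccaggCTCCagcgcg
Rps6, chr4:86857348-86857397, minus strand: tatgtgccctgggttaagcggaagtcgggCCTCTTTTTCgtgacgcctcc
Rplp2, chr7:141447621-141447670, plus strand: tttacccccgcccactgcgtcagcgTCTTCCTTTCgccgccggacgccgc
Rpl22l1, chr3:28805478-28805527, plus strand: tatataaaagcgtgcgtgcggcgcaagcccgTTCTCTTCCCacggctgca
Rps27l, chr9:66946056-66946105, plus strand: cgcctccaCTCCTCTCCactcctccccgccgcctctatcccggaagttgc

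The run was 9 bases long in Rps27, 11 in Rps18, 10 in Rps6 and 10 in Rplp2, and in these it crosses the annotated start. In Rps4x the longest run was 4 bases. The paralog Rpl22l1 has a run of 10 at its start, whereas that of Rps27l, 9 bases long, lies before the start shown, which is 1 of 2 starts in the table. Another run of 9 in Rps27l, not marked, follows it after 1 base and also lies before that start. The start shown for Rps27l lies 1462 bases after the start of the gene, and its other start is not shown here. Windows of 300 bases, 250 before and 50 after the start, were held for 67 of the 88 genes, as 79 windows, and 21 had none. A run of at least 8 C and T within 15 bases of the start was in 43.0% of the 79 windows and in 17.6% of all 32851 windows in the table.

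Motifs were then searched on both strands of these windows as plain letters. CGGAAG, the core of sites bound by ETS factors, was in 59.5% of the members' windows and 16.9% of all. CTTTCC, which can lie inside such a run of C and T, was in 49.4% and 26.6%. TCTCGCGA was in 15.2% and 0.995%. The TATA-box letters TATAAA were in 10.1% and 13.6%, and the E-box CACGTG, a site of Myc-type factors, in 10.1% and 7.15%. These are matches of letters and not sites of binding. Among the 57 core genes with a window, the 29 with the run had log2 fold changes from 0.03 to 0.26 with a median of 0.121, and the 28 without it from -0.01 to 0.26 with a median of 0.141, so the range was nearly the same with and without the run.

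A level is given as log2 intensity with the 75th percentile of its array subtracted, and a difference as cinacalcet minus control on that log2 scale, from limma. That percentile lay between 203 and 257 intensity units, and each array had 51.8% to 58.0% of its spots well above background. Precision is limited by having 4 arrays in a group. Control 4, cinacalcet 2 and cinacalcet 3 went against the male label: none of 4 measured Y-linked genes was well above background there, while Xist, made by cells with an inactive X, had levels of 0.95, 0.46 and 0.73. The remaining 5 arrays detected 3 or 4 of those Y-linked genes, and Xist there was at -4.22 on cinacalcet 1 and between -6.99 and -6.38 on the rest. The counts, the medians and the genes with the highest estimates are therefore also given with this Y-linked signal as a block and on the 5 arrays that have it. Of 12 kidney markers all 12 were measured, and none was called or had an unadjusted p below 0.05. In bulk tissue, fewer cells of a type and less RNA per cell cannot be told apart.

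No ribosomal protein gene passed an adjusted p of 0.05, and the estimates of the core genes were nearly all small and positive. The count was 0 of 86 in limma with Benjamini-Hochberg adjustment over 14209 genes, of which 8.02% were called, 3.37% as higher and 4.64% as lower. The lowest adjusted p among the members was 0.0594, for Rps27. The estimate was positive for 75 of 77 core genes, the exceptions being Rpl29 at -0.03 and Rps2 at -0.01, against 45.4% of all genes tested. The median over the core genes was 0.125, a 1.09-fold difference, and that over all genes was -0.0285. The median over all 86 members, paralogs included, was 0.120. A block for Y-linked signal gave a median of 0.108, and 2 members were called beside 17.0% of all genes. The 5 arrays with that signal gave 0.0813, and in limma none was called beside 7.85% of all genes. There, 1 member had an unadjusted p below 0.05, beside 31.1% of all genes.

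At an unadjusted p below 0.05, 14 of 86 members were higher with cinacalcet and none lower, which is 16.3% of members beside 11.6% of all genes in that direction. The 4 cinacalcet arrays lay above all 4 control arrays for 27 of 86 members, or 31.4%, and below them for none. Of all genes tested, 8.01% lay above in this way and 9.80% below. All 27 and all 14 are core genes. Members share their arrays and their scaling, so these counts are not independent of each other. The limma standard error of a core gene lay between 0.0596 and 0.104, so a single estimate near the median of 0.125 is not well separated from 0.

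**Figure D1:**
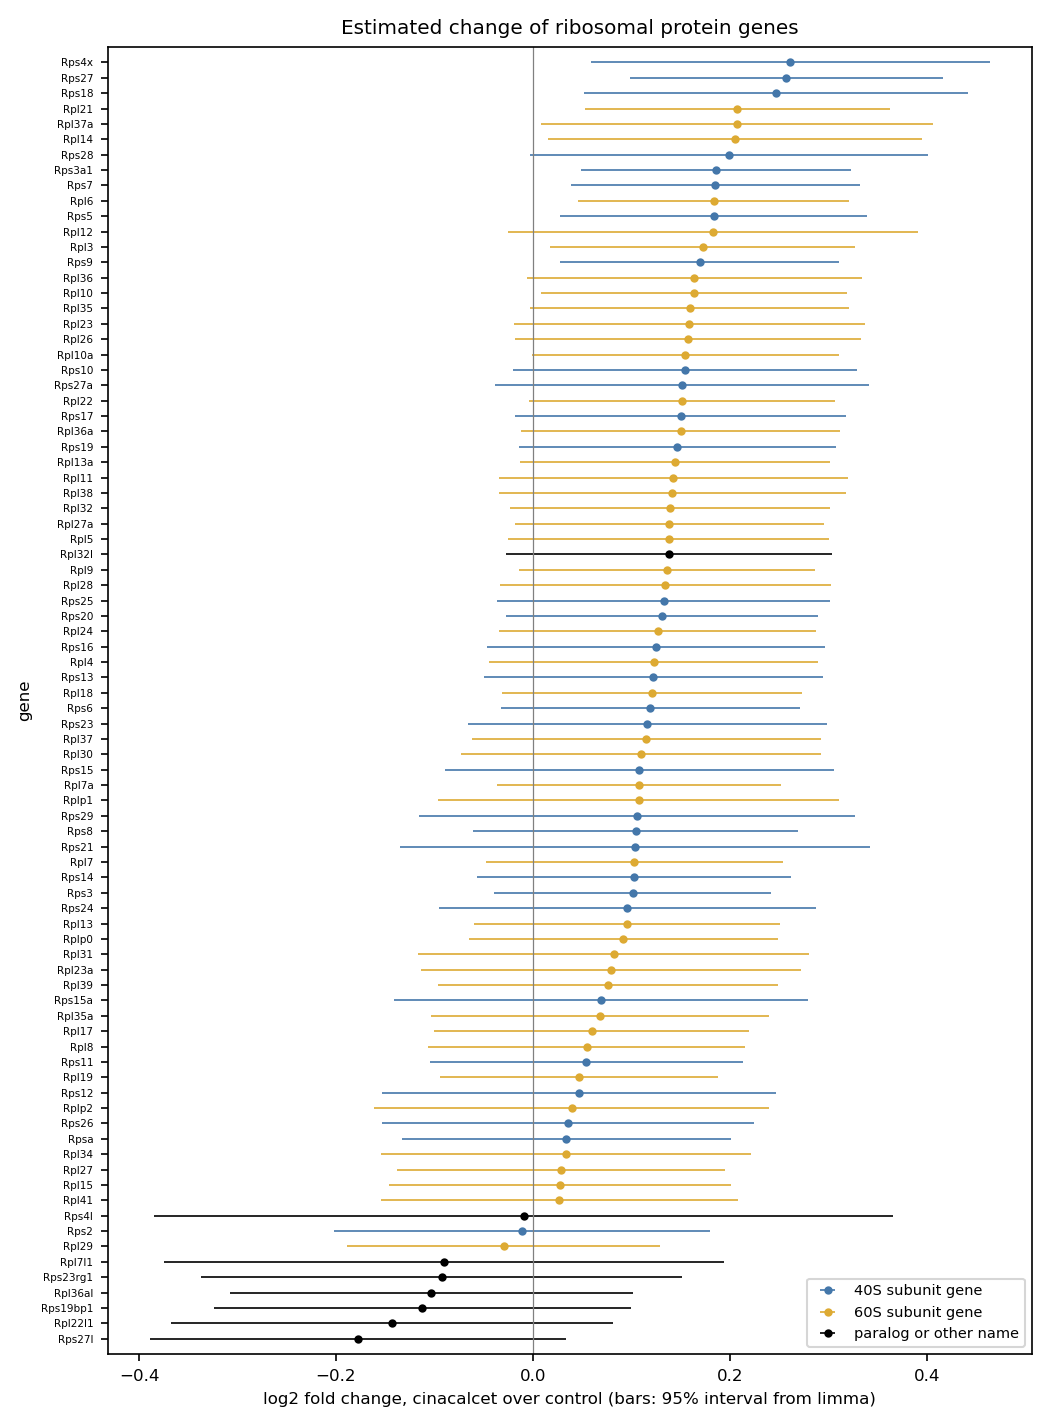
Estimated change of 84 of the 86 measured genes, sorted, as log2 fold change of cinacalcet over control on the horizontal axis, with points for limma estimates and bars for 95% intervals (4 arrays per group). Rpl3l is left out because its interval, -1.39 to 1.18, is much wider than the axis. Blue points are 40S genes, yellow 60S genes and black paralogs or other names. Core genes lie between -0.03 and 0.26, and 13 of the intervals shown lie wholly above 0.

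The core genes moved together from array to array, and the groups overlapped in this. Taken as the deviation of each core gene from its own mean over the 8 arrays, the median was -0.159, 0.0194, -0.0563 and -0.0460 on controls 1 to 4 and 0.0118, 0.0696, 0.150 and 0.0247 on cinacalcet 1 to 4. Control 2 thus lay above cinacalcet 1. Of the 77 core genes, 1, 51, 10 and 19 were above their own mean on controls 1 to 4, and 46, 72, 75 and 50 on cinacalcet 1 to 4. Control 1 was the low end and cinacalcet 3 the high end, while control 2 and cinacalcet 1, 2 and 4 lay close together. The paralogs did not follow the core genes on each array: their median deviation was highest on control 2, at 0.150, and lowest on control 4, at -0.155.

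The order of the arrays depended on how they were scaled. With quantile normalization the core medians were -0.142, -0.0786, -0.114 and -0.000516 on controls 1 to 4 and 0.0608, 0.107, 0.156 and 0.0149 on cinacalcet 1 to 4, so that the groups no longer overlapped. With cyclic loess they were -0.177, -0.118, -0.142 and 0.0509 against 0.0592, 0.142, 0.181 and 0.0143, and control 4 lay above cinacalcet 4. Control 2 was thus above 0 under the 75th percentile and below it under both of these.

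**Figure D2:**
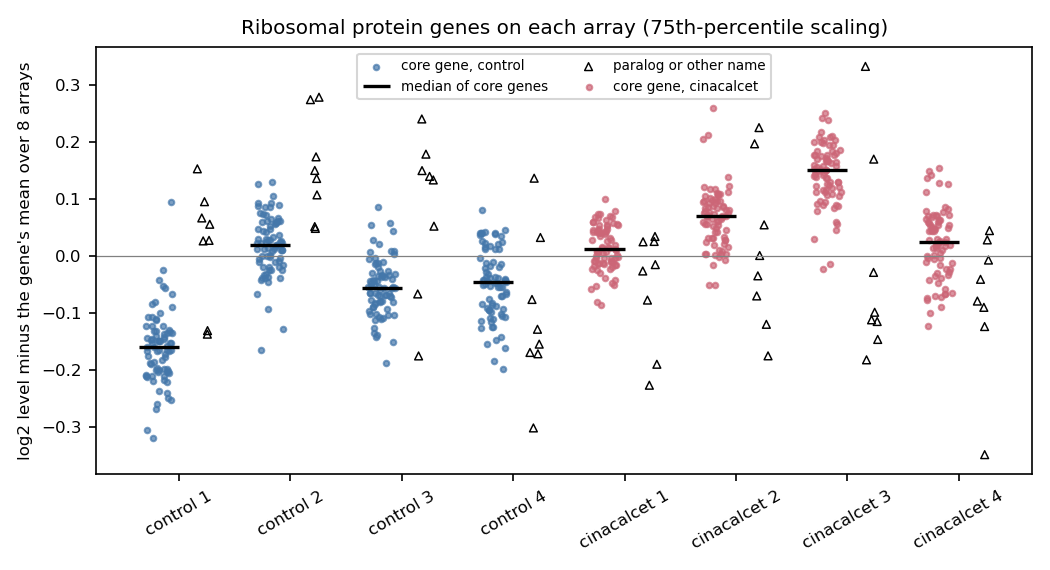
Deviation of each ribosomal protein gene from its own mean over the 8 arrays, in log2 units, by array. Filled points are the 77 core genes, bars their median, and open triangles the paralogs and other names (Rpl3l is left out because of its wide spread). The core median runs from -0.159 on control 1 to 0.150 on cinacalcet 3, and control 2 lies above cinacalcet 1.

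In the small subunit, 30 of 31 genes had a positive estimate, with a median of 0.122. Of the 31, 7 (22.6%) had an unadjusted p below 0.05, all higher, beside 11.6% of all genes in that direction. Groups did not overlap for 11 (35.5%), all higher, beside 8.01% of all genes. Rps27, a zinc-finger protein of the small subunit, was at 8.03, 8.20, 8.05 and 8.15 in controls and at 8.32, 8.34, 8.45 and 8.37 with cinacalcet. All cinacalcet arrays were above all control arrays. The mean went from 8.11 ± 0.08 to 8.37 ± 0.06 (SD, n = 4), a log2 difference of 0.26 (SE 0.07, 95% interval 0.10 to 0.42, limma adjusted p = 0.0594). Blocking on Y-linked signal gave a difference of 0.24 (adjusted p = 0.0436), and the 5 arrays with it gave 0.25 (adjusted p = 0.124).

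Rps4x, the X-linked small-subunit protein, had the largest estimate of all members. It was at 5.37, 5.48, 5.50 and 5.57 in controls and 5.62, 5.87, 5.85 and 5.63 with cinacalcet, a difference of 0.26 (SE 0.09, 95% interval 0.06 to 0.46, limma adjusted p = 0.104). The groups did not overlap. Within each group its highest arrays were those without Y-linked signal (control 4, cinacalcet 2 and cinacalcet 3), and with that signal as a block its difference was 0.21 (adjusted p = 0.0522) and the term for the arrays without it was 0.19 (adjusted p = 0.0782). On the 5 arrays with the signal the difference was 0.17 (adjusted p = 0.201). Rps18, a protein of the head of the small subunit, was at 6.05, 6.30, 6.31 and 6.32 in controls and 6.44, 6.57, 6.53 and 6.42 with cinacalcet, a difference of 0.25 (limma adjusted p = 0.108). Control 1 was low beside the other controls, and without it the difference was 0.18. It was 0.22 in Rps18 with the Y-linked block (adjusted p = 0.0904) and 0.21 on the 5 arrays (adjusted p = 0.248).

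Rps6, the protein that S6 kinases phosphorylate downstream of mTORC1, was at 7.06, 7.13, 7.10 and 7.03 in controls and 7.14, 7.25, 7.28 and 7.14 with cinacalcet. The groups were apart by a narrow margin, with a difference of 0.12 (95% interval -0.03 to 0.27, limma adjusted p = 0.276). Rps19, whose human counterpart is mutated in Diamond-Blackfan anaemia, had a difference of 0.15 (adjusted p = 0.215), with cinacalcet 4 and control 2 level at 5.75. Rps27a, made as a fusion with ubiquitin, had 0.15 (adjusted p = 0.270). Rpsa, also known as the laminin receptor, had 0.03 (adjusted p = 0.793) and overlapping groups. Thus the estimates within the small subunit ran from near 0 to 0.26, and neighbours in this order differed by less than their standard errors.

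The large subunit looked alike, with a positive estimate for 45 of 46 genes and a median of 0.131. An unadjusted p below 0.05 was found for 7 of 46 (15.2%), and groups were apart for 16 (34.8%), all of them higher with cinacalcet. The shares of all genes in that direction were 11.6% and 8.01%. Rpl21, a protein of the large subunit named after its values were seen, was at 5.80, 5.92, 5.86 and 5.87 in controls and 6.04, 6.08, 6.18 and 6.00 with cinacalcet. Every cinacalcet array was above every control array. The mean went from 5.86 ± 0.05 to 6.07 ± 0.08 (SD, n = 4), a difference of 0.21 (SE 0.07, 95% interval 0.05 to 0.36, limma adjusted p = 0.0941). Blocking on Y-linked signal gave 0.19 (adjusted p = 0.0730), and the 5 arrays gave 0.155 (adjusted p = 0.225).

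Rpl5 and Rpl11 bind 5S ribosomal RNA and, when ribosome assembly is disturbed, hold back the p53 inhibitor Mdm2. Rpl5 was at 5.33, 5.38, 5.34 and 5.18 in controls and 5.42, 5.38, 5.48 and 5.50 with cinacalcet, a difference of 0.14 (limma adjusted p = 0.245), and Rpl11 had 0.14 (adjusted p = 0.266) with overlapping groups. The stalk proteins, which recruit elongation factors to the large subunit, were among the lower estimates. Rplp0, the base of the stalk, had 0.09 (adjusted p = 0.411), Rplp1 0.11 (adjusted p = 0.461) and Rplp2 0.04 (adjusted p = 0.800), and each had overlapping groups. On the 5 arrays with Y-linked signal Rplp2 was at -0.01.

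The 9 measured paralogs and other names had a median of -0.102, and 8 of the 9 had a negative estimate, none of them called. Rps27l, a paralog of Rps27 that p53 can induce, was at 7.27, 7.52, 7.38 and 7.17 in controls and 7.27, 7.07, 7.13 and 7.15 with cinacalcet. It had the lowest estimate of all members, -0.18 (95% interval -0.39 to 0.03, limma adjusted p = 0.247), and cinacalcet 1 and control 4 lay inside the other group's range. Rpl22l1, which can take the place of Rpl22, had -0.14 (adjusted p = 0.373), with 5.37, 5.38, 5.52 and 5.12 in controls and 5.20, 5.21, 5.09 and 5.32 with cinacalcet. Control 4 was the lowest control for both.

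Rps19bp1, a protein that binds Rps19 and no part of the mature ribosome, had -0.11 (limma adjusted p = 0.459), and Rpl36al, the autosomal relative of the X-linked Rpl36a, had -0.10 (adjusted p = 0.484). Rpl7l1 had -0.09 (adjusted p = 0.669) and Rps4l, which RefSeq lists as a transcribed pseudogene, -0.01 (adjusted p = 0.975). Rps23rg1, named here after its values were seen, had -0.09 (adjusted p = 0.604). The only positive estimate was 0.14 for Rpl32l (adjusted p = 0.251), also named after its values were seen. For these 6 the arrays of both groups overlapped.

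Rpl3l, the form of Rpl3 found in heart and skeletal muscle, varied more between arrays than any core gene. It was at -2.39, -1.57, -1.69 and -3.93 in controls and -2.02, -3.03, -3.17 and -1.76 with cinacalcet, a difference of -0.10 (SE 0.56, limma adjusted p = 0.922). The 3 lowest arrays were control 4, cinacalcet 3 and cinacalcet 2, those without Y-linked signal, and between those 3 and the other 5 the difference was -1.57 (limma adjusted p = 0.00575, with treatment in the fit). It was the only member of 86 called for that split, beside 19.1% of all genes tested. Rpl10l and Rpl39l, relatives of X-linked genes that are known from testis, were left untested: neither probe of Rpl10l was well above background on any array, and Rpl39l was so on cinacalcet 1 and cinacalcet 3 only, at -2.71 and -2.85.

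Setting each core gene against its paralog on the same array cancels a scale factor of the whole array. It does not cancel a shift that depends on brightness, and mean levels of Rpl3l, Rps23rg1, Rpl7l1 and Rps4l were below 0, far under their core genes. For 7 of 8 pairs the log2 ratio of core gene to paralog was on average 0.19 to 0.44 higher with cinacalcet, and groups did not overlap for 1 of them. This count mostly restates the positive core and negative paralog estimates above. The share over other gene pairs was not computed. Relative to the control mean, the ratio of Rps27 to Rps27l was -0.01, -0.09, -0.10 and 0.21 on controls 1 to 4 and 0.27, 0.49, 0.54 and 0.44 on cinacalcet 1 to 4, a mean difference of 0.44. Control 4 was the nearest control to the cinacalcet arrays. The differences were 0.29 for Rpl22 over Rpl22l1, 0.27 for Rpl3 over Rpl3l, 0.27 for Rps4x over Rps4l, 0.25 for Rpl36a over Rpl36al, 0.21 for Rps23 over Rps23rg1 and 0.19 for Rpl7 over Rpl7l1, all with overlapping groups. A ratio shows unequal change and not which partner changed. The pair Rpl32 and Rpl32l differed by 0.00, its ratio staying between -0.04 and 0.05 on all arrays, and whether these probes read separate messages was not tested.

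**Figure D3:**
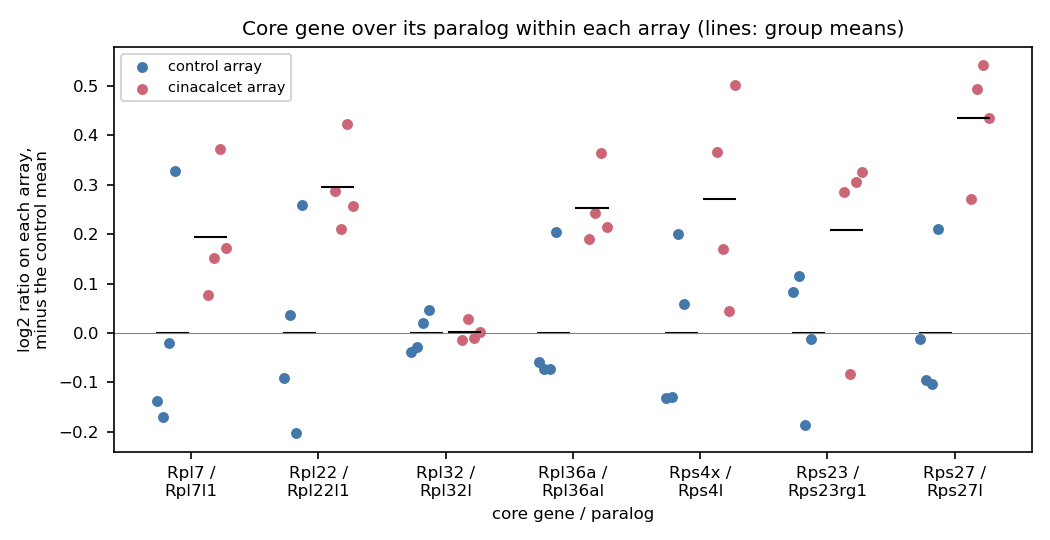
Log2 ratio of a core gene to its paralog on each array, with the mean of the 4 control arrays set to 0 (vertical axis), for 7 pairs. Points are arrays and lines group means, and Rpl3 over Rpl3l is left out because of its wide spread. For Rps27 over Rps27l all 4 cinacalcet arrays, at 0.27 to 0.54, lie above the controls, of which the highest is at 0.21.

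Most members had several probes, and these mostly had the same sign. Of 178 probes 172 were kept, 148 of them with a positive estimate, and none was called beside 6.04% of all 29732 kept probes. At an unadjusted p below 0.05 there were 29, with higher and lower ones among them. The lower ones included probes of Rpl13a, Rpl27a and Rpl15, none of them the brightest probe that stood for its gene. The share of all kept probes at that level was not computed. Of 51 members with more than 1 kept probe, 36 had all probes of the same sign, with a median spread of 0.0658 between probes. The largest disagreement was in Rpl13a, with a probe at 0.14 and both others at -0.36. Next came Rpl17, with 6 of 7 probes positive and 1 at -0.21, then Rpl27a, at 0.14, 0.13 and -0.28, and Rpl15, at 0.03 and -0.37 (the latter with limma adjusted p = 0.0502 over probes). Ribosomal protein genes have many processed pseudogenes, and whether a probe also reads these was not tested.

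The 3 other ribosome genes listed were all measured. Their estimates ran from 0.04 to 0.16 with a median of 0.103, and none was called. Fau, which encodes a fusion with the small-subunit protein eS30, had 0.16 (limma adjusted p = 0.208), and Rack1, a scaffold on the small subunit, had 0.10 (adjusted p = 0.340). Of 12 measured elongation factors and helpers none was called, 1 in each direction had an unadjusted p below 0.05, and the median was 0.0468. Eef1a1, which brings aminoacyl-tRNA to the ribosome and whose message also starts with a C and T tract, had 0.16 (adjusted p = 0.174), with groups apart, and Eef1e1, part of the tRNA synthetase complex, had -0.26 (adjusted p = 0.175). The 5 measured hosts of small nucleolar RNAs, of 13 listed, had positive estimates, none was called and 1 had an unadjusted p below 0.05. Snhg3 had 0.35 (adjusted p = 0.0580) and Snhg5 0.55 (adjusted p = 0.208).

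Genes that build ribosomes or start translation went both ways. Of 68 measured assembly genes, 2 rose and 2 fell, with a median of 0.00065. Over all genes tested, 3.37% were called as higher and 4.64% as lower. Nle1, an assembly factor of the large subunit, rose by 0.39 (limma adjusted p = 0.0300) and Nop56, a core protein of box C/D small nucleolar particles, by 0.26 (adjusted p = 0.0484). Wdr12 fell by 0.41 (adjusted p = 0.0154) and Pes1 fell by 0.48 (adjusted p = 0.0412), and both act in the PeBoW complex of large-subunit assembly. Of 37 initiation factors, Eif5, which triggers GTP hydrolysis at the start codon, rose by 0.48 (adjusted p = 0.0142), and Eif4a2, an RNA helicase, fell by 0.31 (adjusted p = 0.0342). With 1 array left out, Eif5 was called in 7 of 8 fits, Wdr12 in 5 and Pes1 in 2. Nle1, Nop56 and Eif4a2 were each called in 1.

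Of 38 measured regulators of mTORC1 and of ribosomal protein genes, 4 rose and none fell (8 and 3 at an unadjusted p below 0.05), with a median of 0.0527. Over all 14209 genes tested, 1650 were higher and 2319 lower at that unadjusted level. Myc, a transcription factor that drives ribosome production, went from -2.44 ± 0.15 to -1.88 ± 0.11 (SD, n = 4), a 1.47-fold rise (limma adjusted p = 0.0191). Eif4ebp3, a repressor of cap-dependent initiation, rose 3.24-fold (adjusted p = 0.0363), from 3.00, 2.97, 2.72 and 2.71 in controls to 3.64, 4.59, 4.27 and 5.67 with cinacalcet. Sesn1 rose 1.53-fold (adjusted p = 0.0334) and Tsc2 1.24-fold (adjusted p = 0.0495), and both are known to restrain mTORC1. With 1 array left out, Myc and Eif4ebp3 were called in 3 of 8 fits, Sesn1 in 2 and Tsc2 in 1. On the 5 arrays with Y-linked signal Myc was called, and Eif4ebp3, Sesn1 and Tsc2 were not. None of the 10 S6 kinase genes was called, and only Rps6ka5, at -0.45 (limma adjusted p = 0.112), had an unadjusted p below 0.05.

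In the 5S particle and p53 group, 1 of 7 genes passed. Cdkn1a, the cell cycle inhibitor p21 and a target of p53, rose 2.97-fold (limma adjusted p = 0.0134), from -0.26, -0.21, 0.54 and 0.35 in controls to 1.25, 1.91, 2.05 and 1.50 with cinacalcet, with groups apart, and it passed without any single array (adjusted p 0.0102 to 0.0481). Mdm2, also a target of p53, had 0.16 (adjusted p = 0.237), and Trp53, which encodes p53, -0.31 (adjusted p = 0.0633).

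The gene groups most like the cytosolic ribosomal proteins had estimates on the other side of 0. Of 77 measured mitochondrial ribosomal protein genes, whose products translate the few messages of the mitochondrial genome, 73 had a negative estimate, 5 fell and none rose (25 and 1 at an unadjusted p below 0.05), with a median of -0.169. Mrpl1 fell by 0.34 (limma adjusted p = 0.0166) and Mrps21 fell by 0.43 (adjusted p = 0.0270). Among 82 oxidative phosphorylation genes 8 fell and none rose (45 and 0 at an unadjusted p below 0.05), with a median of -0.178. Ndufa1 fell by 0.42 (adjusted p = 0.0179) and Ndufa4 fell by 0.40 (adjusted p = 0.0244). Of 38 proteasome genes, whose products degrade protein, Psmd9 rose by 0.55 (adjusted p = 0.0185), none fell (5 at an unadjusted p below 0.05) and the median was -0.123. Of all 14209 genes tested, 660 fell and 479 rose (2319 and 1650 at an unadjusted p below 0.05). The mitochondrial ribosomal, oxidative phosphorylation, regulator, assembly, initiation and elongation lists together held 23 calls. When 1 array was left out, these lists held from 0 calls, without control 2, to 92, without control 4, and the latter included all 23. Without cinacalcet 1 there were 12 calls, 11 of them among the 23, and without any other array at most 7. Blocking on Y-linked signal gave 54 calls, all 23 included, and the 5 arrays with that signal gave 12, of which 7 were among the 23. The median of the mitochondrial ribosomal genes was -0.134 and -0.201 in these fits, and that of the oxidative phosphorylation genes -0.168 and -0.182. The 24 genes named as called in these, the proteasome, the p53 and the other-cell lists were all called with the block, and 15 of them were called on the 5 arrays, Myc, Cdkn1a, Mrpl1, Ndufa1 and Ndufa4 among these.

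**Figure D4:**
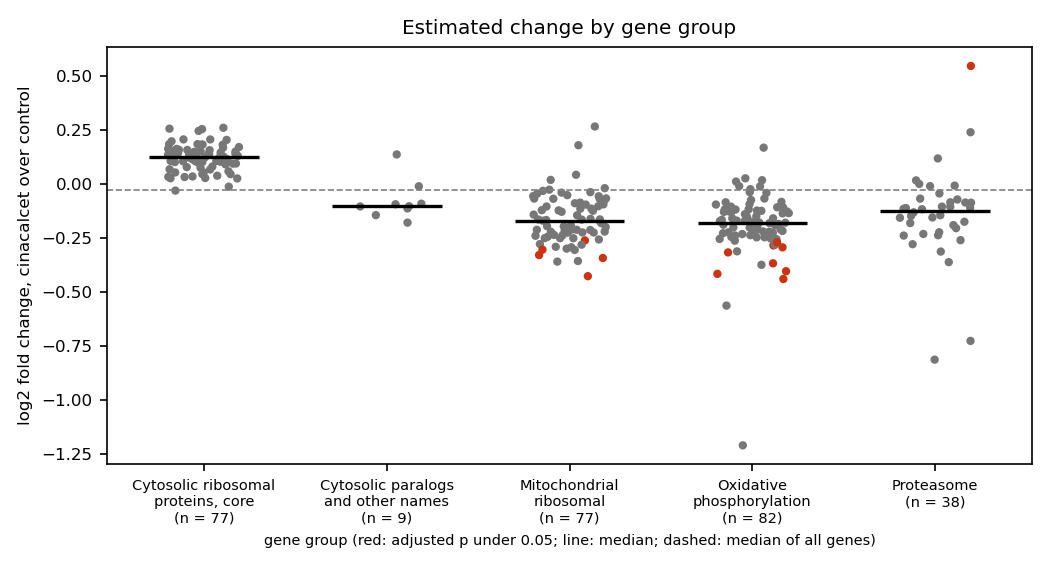
Log2 fold change of cinacalcet over control for each gene (points) of 5 groups, with the group median as a bar and the median of all 14209 genes as a dashed line. Red points passed an adjusted p of 0.05. The core ribosomal protein genes, with a median of 0.125, hold no red point, and the mitochondrial ribosomal genes, with a median of -0.169, hold 5, all lower.

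Markers of other cells moved with the treatment. Of 6 erythroid genes 5 fell, Hbb-bt 5.78-fold (limma adjusted p = 0.0128) and Alas2 4.78-fold (adjusted p = 0.0191), and the summed linear level of all 6 was 1800 to 2130 on control arrays and 440 to 1210 on cinacalcet arrays. Of 9 measured immune markers, 2 rose (S100a8 and S100a9) and 3 fell (Adgre1, Csf1r and Itgax), with sums of 33.9 to 37.9 and 25.9 to 31.7. Hbb-bt, S100a9, Itgax and Ucp1 passed without any single array, while Alas2, S100a8, Adgre1 and Csf1r did not (highest adjusted p 0.0649, 0.0730, 0.0656 and 0.0679). Fat markers fell for 1 of 6 (Ucp1), with sums of 45.0 to 205 and 21.1 to 97.8. Kidney markers summed to 2560 to 3130 and 1670 to 2830. Of 8 adrenal markers 4 were measured, with sums of 0.762 to 1 and 0.95 to 1.19. None was called, but all 4 estimates were positive. An unadjusted p below 0.05 was found for 2 of the 4, beside 11.6% of all genes as higher. The defining genes Cyp11a1, Cyp11b1 and Cyp11b2 did not pass the filter on background. The summed level of the ribosomal protein genes was 15300 to 17600 in controls and 17400 to 18900 with cinacalcet. The part these cells have in the ribosomal protein values was not tested.

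Whether single ribosomal protein genes were called depended on the setting, and most core genes had a positive estimate in every setting tried. Between 67 and 77 of the 77 core genes were positive in each of 25 alternative settings, with Rpsa and Rplp2 among those that turned sign in some, and the median over the members ran from 0.0813, on the 5 arrays with Y-linked signal, to 0.208, with slide column as a block. The outer slide columns each held arrays of a single group, so estimates with that block rest on the inner columns alone. Some member was called in 8 of the 25. Quantile normalization called 7 members, all higher, beside 9.99% of all genes. At an unadjusted p below 0.05 there were 49 of 86, all higher, beside 29.6% of all genes in either direction. Cyclic loess, which also adjusts for brightness, called 6 beside 10.3%, and normexp background correction called 6 beside 7.61% with the 75th percentile and 12 beside 10.9% with quantile normalization. Counts of 2, Rps27 among them, were reached with eBayes trend and robust settings, beside 9.70% of all genes, with a block for Y-linked signal, beside 17.0%, and without control 4, beside 23.6%. Array weights called 13 higher and 4 lower (Rps27l, Rpl22l1, Rpl36al and Rps19bp1) beside 38.3%. Rps27 was called in 8 settings, Rpl6 and Rps3a1 in 5 and Rps7 in 4, while 65 of 86 were called in none.

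**Figure D5:**
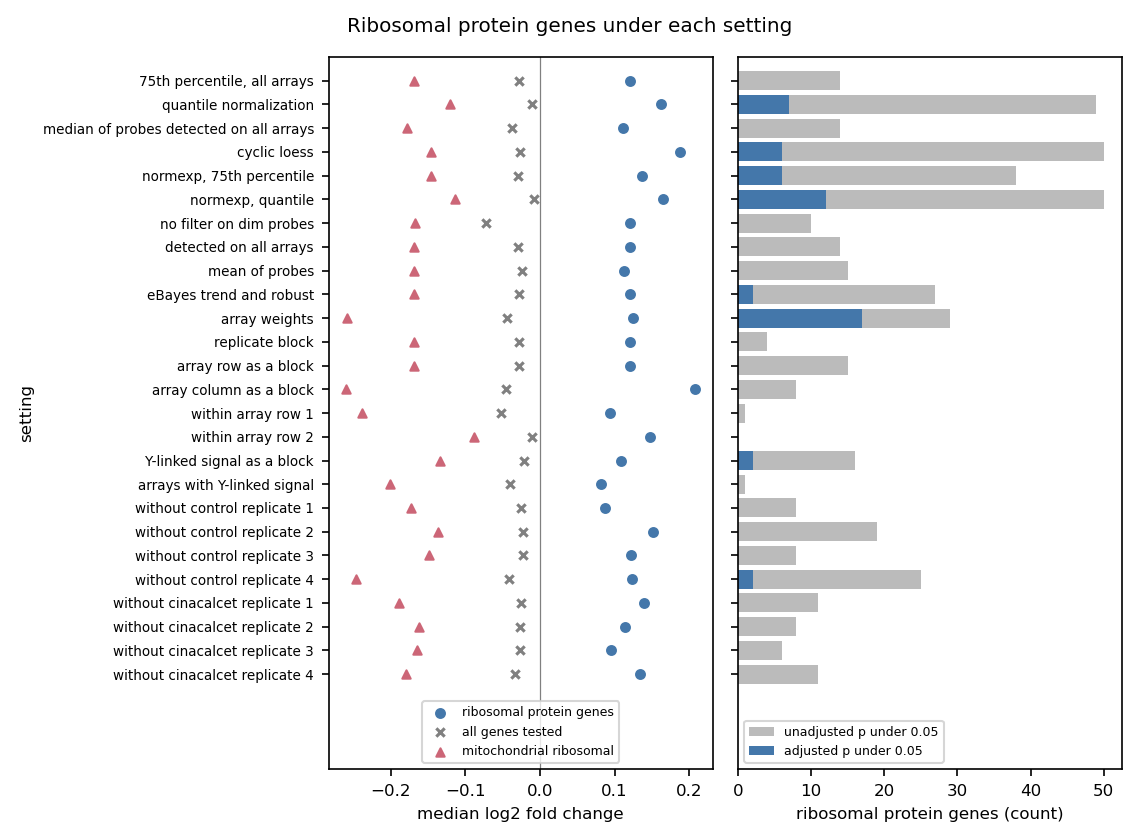
Left, median log2 fold change over the ribosomal protein genes (circles), all genes tested (crosses) and mitochondrial ribosomal genes (triangles) under the setting used in the text, at the top, and 25 others. Right, the number of ribosomal protein genes with an unadjusted (grey) or adjusted (blue) p under 0.05. The circles stay between 0.0813 and 0.208, and 0 to 17 genes are called.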

How the data were processed

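Total RNA of 8 kidney samples was labelled with Cy3 and read on single-colour Agilent arrays of 62976 spots. The deposited files hold spot intensity on a linear scale, background-corrected by Agilent Feature Extraction 11.0.1.1 per the file headers, whereas the submitters' processing notes name version 9.5. No normalization between arrays is recorded in the headers.

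Control spots were left out (59305 spots of 55681 probes remain), 118 to 147 outlier spots per array were set to missing, and no spot was saturated. Intensity was taken as log2 minus each array's 75th percentile, and spots of a probe were averaged, with 31 probes dropped. A probe had to be well above background on 4 or more of the 8 arrays. Accessions named 27235 probes through a RefSeq table of assembly GRCm38.p6 and left 28446 unnamed. The brightest probe stood for each of 14209 genes. Groups were taken from the sample titles. They were compared with lmFit and eBayes in limma 3.58.1 under R 4.3.3, without covariates and with Benjamini-Hochberg adjustment over all genes. The fit was also run on simulated data with noise drawn independently for each gene. Those data held no effect shared by the genes of an array, so that test does not cover such effects.

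The members, gene lists and tests were chosen with earlier results of these data known. Named members are the 4 highest and 4 lowest estimates, paralogs and other names, and genes named for their role, and list genes are up to 4 past the threshold by p, or up to 2 of lowest p where none passed, with further ones named after their values were seen. Some items within these rules are not reported here, though counts and medians include them. Alternatives were quantile, cyclic loess and median scaling, normexp with an offset of 50 (on the median spot signal, the one the files hold), other filters, averaging a gene's probes, array weights, robust eBayes with a trend, fits within slide rows, leaving out each array, use of the Y-positive arrays only, and blocks for Y-linked signal, slide column, slide row and replicate number. All arrays shared 1 slide and 1 scan time, so neither could be tested as a batch. Treatment was partly confounded with slide column, as the outer columns each held arrays of a single group. Promoter windows are from RefSeq on GRCm38.p6, and protein sequences were not used here.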

Additional observations from a re-analysis of the deposited data

Results flagged for a closer look

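Among the 44 groups of 4 arrays examined for named members and medians, 1 held a value far from the others, and chance flags about 1 group in 20. Rps18 on control 1 was at 6.05, while the other 3 controls were at 6.30 to 6.32, so that 0.936 of the range of the controls lay in that gap. Control 1 also had the lowest median of the core genes of all 8 arrays. Without control 1 the log2 difference of Rps18 was 0.18.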

How the results depend on the processing

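The count of 0 called members became 7 with quantile normalization, 6 with cyclic loess, 6 with normexp and the 75th percentile, 12 with normexp and quantile normalization, 2 with eBayes trend and robust settings, 17 with array weights, 2 with Y-linked signal as a block and 0 to 2 when 1 array was left out, the 2, Rps27 among them, without control 4. The other alternatives gave 0. The median of 0.120 moved to 0.188 with cyclic loess and 0.208 with slide column as a block, by more than the spread of array medians within groups (SD 0.0666), and lay between 0.0866 (without control 1) and 0.151 (without control 2) with 1 array left out. It was 0.125 without the 11 paralogs and other names and 0.122 over all kept probes, both added after seeing the data. Fits with slide column as a block compare the groups within the inner columns alone, as the outer columns each held a single group. None of the 25 alternative settings moved the median of all genes by more than 0.0445, which was reached with no filter on dim probes.

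The 1139 genes called over the whole array became 367 with no filter on dim probes, 5438 with array weights, 2417 with Y-linked signal as a block, 34 with slide column as a block, 1 and 0 within slide rows 1 and 2, and 218 to 3356 with 1 array left out. The 23 calls in the related lists became 5, 140, 54, 0, 0 and 0 in these fits, 15 with slide row as a block, 12 where only arrays with that signal entered and 0 to 92 with 1 array left out. With the replicate block 0 genes, 0 list genes and 0 members were called (2869 genes and 4 members at an unadjusted p below 0.05). Same-numbered arrays correlated at 0.337, -0.544, -0.360 and -0.565. Each such pair holds arrays of opposite groups, so these values cannot tell whether the numbers pair the samples.

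Signs turned for 6 of the named members. Rps4l became 0.12 with array weights, 0.35 with slide column as a block and 0.0725 within slide row 1. Rpsa became -0.00429 and -0.0116 with array weights and within row 1. Within row 2 Rpl22l1 was at 0.0169, Rpl3l at 0.76 and Rpl7l1 at 0.0711. Rpl3l was at 0.29 with Y-linked signal as a block, and Rplp2 at -0.0106 where only arrays with that signal entered. With 1 array left out, Rpl3l ranged from -0.61 to 0.17, Rps4l from -0.12 to 0.11 and Rplp2 from -0.0204 to 0.0746. Of 500 values of named members under alternatives, 455 kept sign and side of the threshold, 26 passed it and 19 turned sign; the cause was not tested. With 4 arrays per group, differences near 0.1 are close to the standard error.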
